A study of Mus musculus with 12 samples.

Results

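Plk2 and 9 further genes of the p53 pathway (Trp53, Cdkn1a, Mdm2, Ccng1, Bbc3, Pmaip1, Bax, Sesn1 and Trp53inp1) were looked up by gene symbol among the microarray probes annotated to exactly 1 gene. Of these 10 genes, 7 had such a probe, out of 19938 genes in all. Each of the 7 had a single probe, so the rule of taking the brightest probe changed nothing for them. The probe that names Cdkn1a, the CDK inhibitor p21, also names another gene and gave no value for it. Trp53, which encodes p53 itself, and Bax were not analysed here, because no probe in the annotation used carried their names.

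Mouse epiblast stem cells (EpiSCs), pluripotent cells that resemble the epiblast after implantation, of genetic background 129, were compared in 4 groups of 3 arrays. All groups, the untreated one included, had 12 h in serum-free medium, although the growth medium recorded for every sample holds 10% fetal bovine serum. The groups were untreated cells, cells given CHIR99021 at 3 µM for 2 h, cells given XAV939 at 2 µM, and cells given both compounds. The time with XAV939 is 2 h in the sample labels and 4 h in the design text. CHIR99021 inhibits GSK3 and so stabilises beta-catenin, and XAV939 inhibits tankyrase and so stabilises Axin, which lowers beta-catenin. Whether the 3 arrays of a group stand for 3 separate cultures is not recorded, and the p-values therefore rest on a spread that may be only technical.

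p53 is a transcription factor that is kept low by the ubiquitin ligase MDM2 and accumulates after DNA damage and other stresses. It then switches on genes that halt the cell cycle, repair or limit damage, or trigger apoptosis, and one of them is Mdm2 itself, which closes a feedback loop. Pluripotent stem cells are known for a ready apoptotic response to damage. PLK2 is a Polo-like kinase with a role in centriole duplication. Its gene is known as an early response gene of serum and as a target of p53.

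Levels are given on the deposited log scale, taken as log2 because values ran from 2.52 to 14.28, and a change is a difference of group means on it. The arrays had medians between 5.22 and 5.27 and standard deviations between 2.14 and 2.21. By replicate, these standard deviations were 2.184, 2.17 and 2.135 untreated and 2.161, 2.182 and 2.191 with CHIR99021. They were 2.183, 2.14 and 2.194 with XAV939 and 2.184, 2.197 and 2.211 with both compounds. As a rough background measure, the 95th percentile of the mean level of 1190 olfactory and vomeronasal receptor genes was 4.93. All 8 EpiSC markers, Pou5f1 and Sox2 among them, lay above that measure on average. Of 7 fibroblast markers, Col3a1, Postn, Lum and Dcn lay below it. Col1a1, Col1a2 and Thy1 lay above it, at 5.36, 5.05 and 7.54. The mean of the 7 ranged from 4.98 to 5.09 untreated and from 4.94 to 5.01 with CHIR99021. It ranged from 4.96 to 5.0 with XAV939 and from 4.91 to 4.98 with both compounds. Of 5 endoderm markers, Gata4, Sox17 and Afp lay below the background measure, while Gata6 and Foxa2 lay above it, at 5.58 and 5.36. Of 6 markers of naive pluripotent cells, Zfp42, Esrrb and Dppa3 lay below it. Klf4, Klf2 and Tbx3 lay above it, at 4.97, 5.54 and 5.05. All 4 neural markers lay above it, but near the array medians, with means from 5.01 for Neurog2 to 5.83 for Tubb3. In such bulk samples a lower value cannot separate fewer expressing cells from less RNA per cell. Axin2, a Wnt target used to check the treatment, rose from 5.94 ± 0.15 (SD, n = 3) untreated to 7.0 ± 0.04 with CHIR99021, a change of 1.06 (SE 0.10, limma adjusted p = 4.8e-05).

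The promoters of Plk2 and of the p53 targets Mdm2 and Ccng1 are shown because Plk2 rose with CHIR99021, while Mdm2 and Ccng1 did not pass the test. Each is the 250 bases before the annotated start in RefSeq, assembly GRCm38.p6, written 5′ to 3′ on the gene's strand. Capitals mark a cAMP response element (TGACGTCA, the same on both strands) in Plk2 and a p53 half-site in Mdm2 and Ccng1.
Plk2, chr13:110394794-110395043, plus strand: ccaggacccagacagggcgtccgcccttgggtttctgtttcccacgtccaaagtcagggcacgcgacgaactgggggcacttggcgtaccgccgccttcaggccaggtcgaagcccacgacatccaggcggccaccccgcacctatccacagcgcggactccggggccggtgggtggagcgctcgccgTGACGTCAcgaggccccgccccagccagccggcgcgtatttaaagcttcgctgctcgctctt
Mdm2, chr10:117710759-117711008, minus strand: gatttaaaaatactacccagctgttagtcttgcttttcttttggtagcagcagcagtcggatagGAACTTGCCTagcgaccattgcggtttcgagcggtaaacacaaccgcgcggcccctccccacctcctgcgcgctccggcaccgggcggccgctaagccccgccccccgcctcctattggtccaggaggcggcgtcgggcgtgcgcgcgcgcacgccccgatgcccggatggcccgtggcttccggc
Ccng1, chr11:40755287-40755536, minus strand: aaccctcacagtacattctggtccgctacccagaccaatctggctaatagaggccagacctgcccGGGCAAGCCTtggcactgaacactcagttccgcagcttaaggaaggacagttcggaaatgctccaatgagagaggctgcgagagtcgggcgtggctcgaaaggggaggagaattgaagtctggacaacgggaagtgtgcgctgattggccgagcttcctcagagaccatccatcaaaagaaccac

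The promoter table held 8 windows for 5 of the 7 measured genes, with none for Pmaip1 and Trp53inp1. In Plk2 the cAMP response element began 62 bases before the start, and 1.55% of all 32817 windows of 250 bases held it. This motif was searched after the sequence had been seen. The p53 half-site, the 10-base unit that p53 binds in pairs, was present in 7.12% of all windows. It began 186 bases before the start in Mdm2, 185 in Ccng1 and 173 in 1 window of Sesn1, a single unit in each. It was not found in the Plk2 window or in the 3 windows of Bbc3, and sites further away were outside the windows. The TCF/LEF motif CTTTGAT, searched on both strands and present in 3.21% of all windows, was in none of the 8. These matches describe letters in a window, not binding.

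Plk2 rose with CHIR99021. Its log2 level was 9.24, 9.26 and 9.12 on the untreated arrays, 9.75, 9.67 and 9.69 with CHIR99021, 9.25, 9.21 and 9.26 with XAV939, and 9.57, 9.56 and 9.44 with both compounds. Every array with CHIR99021, alone or combined, was higher than every array without it, and the arrays with both compounds lay below those with CHIR99021 alone, without overlap. The untreated and XAV939 arrays overlapped. How many of all genes separate this way was not counted, here or for the genes below, so such gaps are description and not a test.

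**Figure D1:**
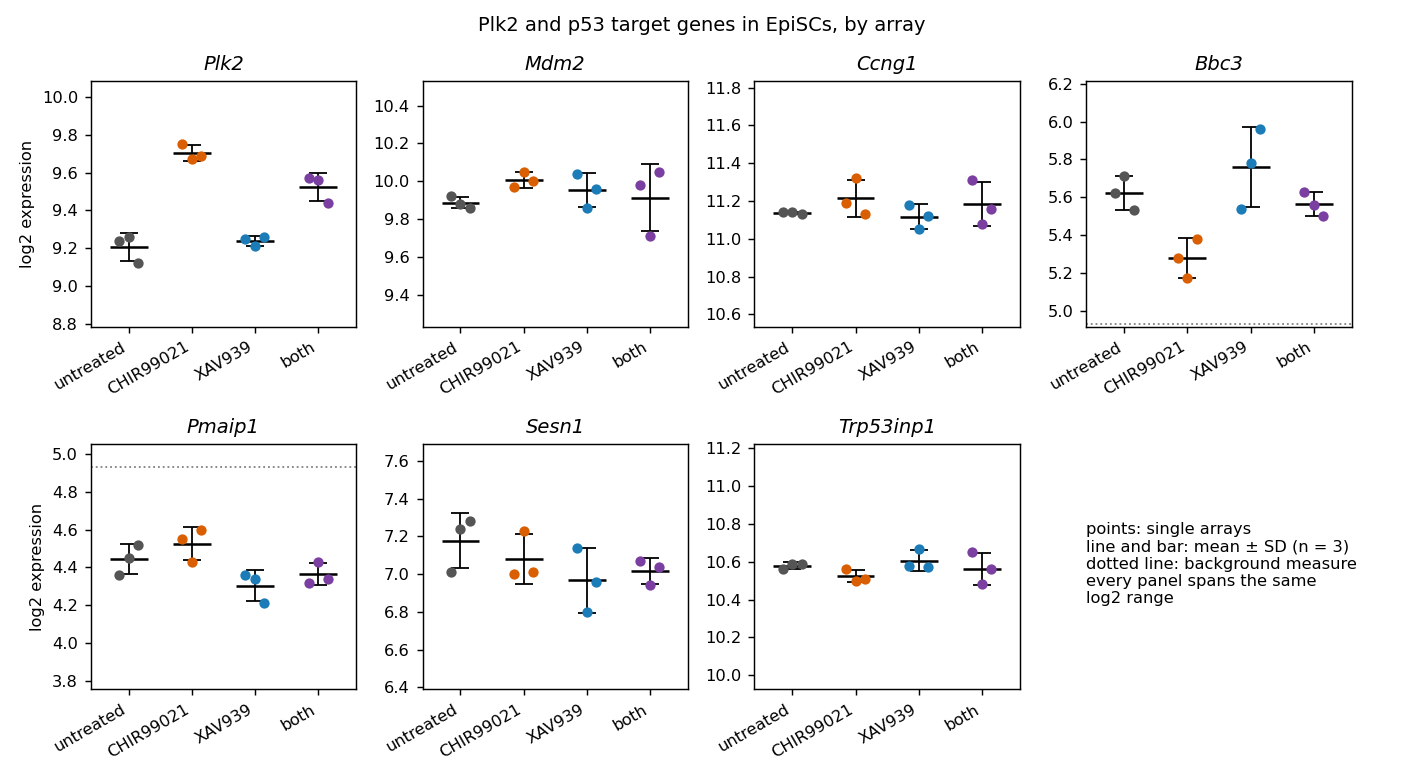
Log2 expression (y axis, the same span in every panel) of the 7 measured genes in untreated cells and with CHIR99021, XAV939 or both compounds (x axis); points are single arrays, lines and bars the mean ± SD (n = 3), and the dotted line the background measure of 4.93. Plk2 stands between 9.67 and 9.75 with CHIR99021 against 9.12 to 9.26 untreated, Bbc3 is lowest with CHIR99021, and Pmaip1 stays below the dotted line.

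From 9.20 ± 0.08 (SD, n = 3) in untreated cells, Plk2 reached 9.70 ± 0.04 with CHIR99021, a change of 0.50 (SE 0.07), or 1.41-fold (limma adjusted p = 0.00305). With genes called at an adjusted p under 0.05, it was the 1 called gene of the 7, where 0.421% of all 19938 genes were called, 0.256% as higher. The call held under each of the 24 alternatives, with changes between 0.46 and 0.53 and adjusted p between 0.000561 and 0.0305. The genes of the set were chosen with earlier results of these data known, so the count above is no evidence about the set.

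Some markers of other cell types changed as well. The mean of the 6 naive markers ranged from 4.75 to 4.83 untreated, 4.90 to 5.07 with CHIR99021, 4.69 to 4.87 with XAV939 and 4.77 to 4.95 with both compounds, so the CHIR99021 arrays were above the untreated ones. These means lay near the background measure of 4.93. None of the 6 was called with CHIR99021 against untreated, where 0.421% of all genes were. Averaged over XAV939, where 1.59% of all genes were called, 4 of the 6 had positive and 2 negative changes with CHIR99021. Klf2 and Tbx3 were called higher (0.21 and 0.40, limma adjusted p = 0.038 and 0.013), while Esrrb had -0.15 (limma adjusted p = 0.305). The mean of Tbx3 was 4.93 untreated and 4.77 with XAV939, at or below the background measure. The 4 neural markers split into 2 positive and 2 negative changes. Pax6 was called lower (-0.25, limma adjusted p = 0.0336), while Sox1 had 0.16 (limma adjusted p = 0.19). Of the 8 EpiSC markers none was called with CHIR99021 against untreated, where 3 had positive and 5 negative changes. Nanog had the highest, 0.38, from 8.77 ± 0.1 (SD, n = 3) untreated to 9.15 ± 0.08 with CHIR99021. The part of all these markers in the Plk2 result was not tested.

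With XAV939 present, the CHIR99021 change of Plk2 was smaller in value and did not pass. Both compounds against XAV939 alone, a contrast built on the other 6 arrays, gave 9.52 ± 0.07 against 9.24 ± 0.03 (SD, n = 3), a change of 0.29 (SE 0.07, limma adjusted p = 0.141). The 95% interval of that change ran from 0.14 to 0.44. In this comparison 0.236% of all genes and none of the 7 were called, and 1 of the 7, Plk2, had an unadjusted p under 0.05, as did 9.69% of all genes. The interaction, which tests the difference of the CHIR99021 changes with and without XAV939, was -0.21 (SE 0.10, limma adjusted p = 0.965), and 0% of all genes were called for it. Of the 7 genes, 1 had an unadjusted p under 0.05, Plk2, as did 4.94% of all genes. A different size of the Plk2 change with XAV939 was therefore not shown.

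Averaged over cells with and without XAV939, so 6 arrays against 6, CHIR99021 changed Plk2 by 0.39 (SE 0.05, limma adjusted p = 0.00048), or 1.31-fold. All 6 arrays with CHIR99021 were above all 6 without it. In this average 1.59% of all genes were called, 0.777% as higher, and Plk2 was again the 1 called gene of the 7. At an unadjusted p under 0.05 stood Plk2 and Bbc3, 2 of 7, against 14.0% of all genes. The call held under each of its 23 alternatives (adjusted p between 9.2e-05 and 0.00478).

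Both compounds against untreated raised Plk2 by 0.32 (SE 0.07), and this call was near the threshold (limma adjusted p = 0.0442). Here 1.13% of all genes were called, 0.818% as higher, and Plk2 was the 1 called gene of the 7. It was also the 1 gene of the 7 with an unadjusted p under 0.05, against 18.7% of all genes. This comparison shares the untreated arrays with the others against untreated. The call held under 8 of 24 alternatives and was lost under 16, with changes between 0.27 and 0.36 and adjusted p between 0.0202 and 0.173. Leaving out untreated replicate 1, 2 or 3 ended it (adjusted p = 0.0633, 0.0915 and 0.173), as did leaving out replicate 1, 2 or 3 of both compounds (adjusted p = 0.0942, 0.138 and 0.0619). So did CHIR99021 replicate 1 or 3 (adjusted p = 0.0533 and 0.0576) and XAV939 replicate 1 or 3 (adjusted p = 0.0601 and 0.0571), which enter only through the estimate of the spread.

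XAV939 alone left Plk2 at 9.24 ± 0.03 (SD, n = 3), a change of 0.03 (SE 0.07, limma adjusted p = 0.886), with a 95% interval from -0.12 to 0.18. Added to CHIR99021, XAV939 gave Plk2 a difference of -0.18 (SE 0.07), which missed the threshold (limma adjusted p = 0.38, unadjusted p = 0.0217). The interval of this difference was -0.33 to -0.03.

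**Figure D2:**
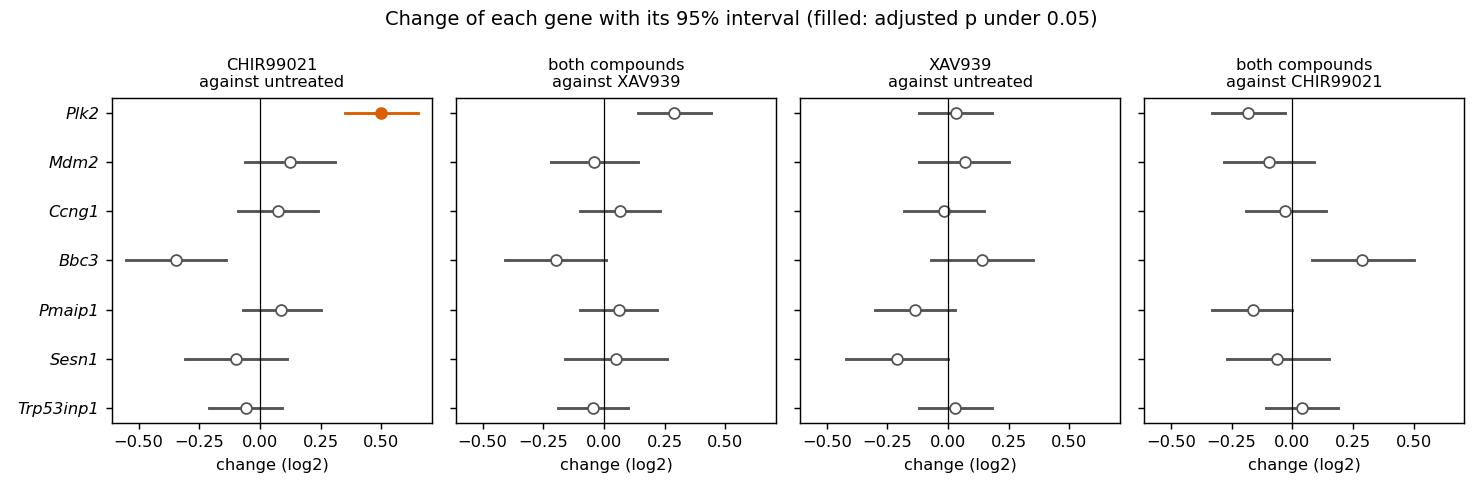
Change of each gene (x axis, log2) with its 95% interval from the fit, for CHIR99021 without and with XAV939 and for XAV939 without and with CHIR99021; filled points have an adjusted p under 0.05. Plk2 with CHIR99021 is the single filled point, at 0.50, and Bbc3 has the most negative CHIR99021 value, -0.35.

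Among the feedback and cell cycle targets of p53, none was called with CHIR99021, XAV939 or both compounds. Mdm2, the ubiquitin ligase that p53 induces against itself, had levels of 9.92, 9.88 and 9.86 untreated and 9.97, 10.05 and 10.0 with CHIR99021. These groups did not overlap, but the change of 0.12 (SE 0.09) did not pass (limma adjusted p = 0.68), and its 95% interval ran from -0.06 to 0.31. Mdm2 was at 10.04, 9.86 and 9.96 with XAV939 and at 9.98, 9.71 and 10.05 with both compounds. These groups overlapped with each other and with the untreated arrays, and replicate 2 of both compounds was the lowest of all 12 arrays.

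Ccng1, which encodes cyclin G1, a partner of protein phosphatase 2A that acts on MDM2, was at 11.14, 11.14 and 11.13 untreated. It was at 11.19, 11.32 and 11.13 with CHIR99021, at 11.18, 11.05 and 11.12 with XAV939 and at 11.31, 11.08 and 11.16 with both compounds. The 4 groups overlapped. The CHIR99021 change was 0.08 (SE 0.08, limma adjusted p = 0.805), with an interval from -0.09 to 0.24.

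Sesn1, which encodes sestrin 1, an inhibitor of mTORC1 signalling, was at 7.01, 7.24 and 7.28 untreated and at 7.0, 7.23 and 7.01 with CHIR99021. It was at 7.14, 6.80 and 6.96 with XAV939 and at 7.07, 6.94 and 7.04 with both compounds. The groups overlapped, and the most negative value was that of XAV939 against untreated, -0.21 (SE 0.10, limma adjusted p = 0.444, unadjusted p = 0.05 after rounding up).

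Trp53inp1, which encodes a nuclear protein that promotes apoptosis and autophagy downstream of p53, varied least. It lay between 10.48 and 10.67 over all 12 arrays. Its group means were 10.58 ± 0.02 untreated, 10.52 ± 0.03 with CHIR99021, 10.61 ± 0.06 with XAV939 and 10.56 ± 0.08 under combined treatment (SD, n = 3). The 8 comparisons gave changes between -0.06 and 0.04, none of them called. The 95% interval of the CHIR99021 change ran from -0.21 to 0.09, so a rise as large as that of Plk2, 0.50, lay outside it. The same held for Mdm2, Ccng1, Sesn1 and Bbc3, with upper limits of 0.31, 0.24, 0.11 and -0.14. For Pmaip1 the upper limit was 0.25, but this gene lay below the background measure on every array. Whether its RNA rose as much as that of Plk2 was therefore not tested. These intervals are unadjusted and rest on a spread that may be only technical.

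The apoptosis genes of the set were Bbc3 and Pmaip1, which encode PUMA and NOXA, BH3-only proteins that neutralise survival members of the BCL2 family. Bbc3 was at 5.62, 5.71 and 5.53 untreated, at 5.28, 5.17 and 5.38 with CHIR99021, at 5.54, 5.78 and 5.96 with XAV939 and at 5.63, 5.56 and 5.50 with both compounds. The CHIR99021 arrays were the lowest and overlapped with no other group, while the untreated, XAV939 and combined arrays overlapped with each other. The share of all genes with such a gap was not counted.

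For Bbc3 the change with CHIR99021 was -0.35 (SE 0.10, limma adjusted p = 0.164, unadjusted p = 0.00265), which did not pass. Averaged over XAV939, the CHIR99021 change was -0.27 (SE 0.07, limma adjusted p = 0.0613), also short of the threshold. This average passed when genes below the background measure or below the median level were left out (adjusted p = 0.0406 and 0.0365) and without XAV939 replicate 1 (adjusted p = 0.0197). Both compounds against CHIR99021 alone gave 0.29 (SE 0.10, limma adjusted p = 0.317), and XAV939 averaged over CHIR99021 gave 0.21 (SE 0.07, limma adjusted p = 0.142). The values of Bbc3 thus ran opposite to those of Plk2 in these comparisons. Plk2 was called with CHIR99021 against untreated and in the CHIR99021 average, where Bbc3 was not. Neither gene was called with both compounds against CHIR99021 or in the XAV939 average, where Plk2 had -0.07 (limma adjusted p = 0.471).

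Pmaip1 lay below the background measure on every array, between 4.21 and 4.60. Its group means were 4.44 ± 0.08 untreated, 4.53 ± 0.09 with CHIR99021, 4.30 ± 0.08 with XAV939 and 4.36 ± 0.06 under combined treatment (SD, n = 3). Its differences were thus measured at the level of background, and none was called.

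Counted over all 7 genes, CHIR99021 against untreated gave 4 positive and 3 negative changes with a median of 0.08. All genes had a median of -0.01, and those at or above the background measure had 0.017. At an unadjusted p under 0.05 stood 2 of the 7, Plk2 upward and Bbc3 downward, where 10.3% of all genes did. XAV939 against untreated gave no called member and no called gene (0% of all genes) by limma, with 1 of 7 members, Sesn1, and 11.2% of all genes at an unadjusted p under 0.05. Both compounds against CHIR99021 gave no called member (0.0251% of all genes were called) and 3 at an unadjusted p under 0.05, Plk2, Bbc3 and Pmaip1, where 11.0% of all genes did. XAV939 averaged over CHIR99021 gave no called member (0.331% of all genes) and 2 at an unadjusted p under 0.05, Bbc3 and Pmaip1, where 16.9% of all genes did.

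Beyond the set, 27 of 30 further p53 targets were measured, among them Zmat3, Phlda3, Aen, Fas, Btg2 and Ddb2. With CHIR99021 against untreated none was called (0.421% of all genes were), 2 were higher and 2 lower at an unadjusted p under 0.05 (10.3% of all genes), and the median change was 0.02. With both compounds against untreated, Gadd45a, a growth arrest gene induced by p53 and by other stress pathways, was the 1 gene called, higher, where 1.13% of all genes were called. There 3 were higher and 0 lower at an unadjusted p under 0.05 (18.7% of all genes), and the median was 0.06. With XAV939 none was called (0% of all genes), 3 were higher and 0 lower at an unadjusted p under 0.05 (11.2% of all genes), and the median was 0.05. For all genes at or above the background measure, the medians against untreated were 0.017 with CHIR99021, 0.054 with both compounds and 0.034 with XAV939. Of the 27 genes, Fas, Ephx1 and Lif lay below the background measure on average.

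Gadd45a was at 7.50, 7.60 and 7.30 untreated, 7.93, 7.75 and 7.88 with CHIR99021, 7.87, 7.92 and 7.82 with XAV939 and 7.93, 8.09 and 7.81 with both compounds. Every treated array was above every untreated one, and the 3 treated groups overlapped. The changes against untreated were 0.39 (SE 0.09, limma adjusted p = 0.0866) with CHIR99021, 0.41 (adjusted p = 0.221) with XAV939 and 0.48 (adjusted p = 0.0239) with both compounds, all against the same 3 arrays. The last call was lost under 8 of 24 alternatives (adjusted p between 0.0128 and 0.12). It ended without untreated replicate 3 (adjusted p = 0.12) or replicate 1 or 2 of both compounds (adjusted p = 0.0596 and 0.105). Quantile normalization and cyclic loess ended it as well (limma adjusted p = 0.0586 and 0.0618). So did array SD as covariate and the fit to the groups compared (limma adjusted p = 0.0966 and 0.0568). Both compounds against XAV939 gave 0.07 and both against CHIR99021 gave 0.09, and neither passed (limma adjusted p of at least 0.673 under every alternative).

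Of 23 regulators of p53, 22 were measured, including Mdm4, the partner of MDM2, Usp7, which removes ubiquitin from p53 and MDM2, Atm and Chek1, kinases of the damage response, and Ppm1d, a phosphatase that switches it off. None of the 22 was called in any comparison by limma. Cdkn2a is counted here and again among the CDK inhibitor genes. With CHIR99021 the median change was 0.01, and 2 were higher and 1 lower at an unadjusted p under 0.05, where 10.3% of all genes were. At the same threshold 3 were higher and 0 lower with XAV939 (11.2% of all genes) and 5 higher and 1 lower with both compounds against untreated (18.7%). XAV939 averaged over CHIR99021 gave 5 higher and 0 lower (16.9%). More genes were higher than lower over all 19938 genes too. There 1184 were higher and 1057 lower with XAV939 against untreated, and 2003 and 1723 with both compounds against untreated. In the XAV939 average 1900 were higher and 1476 lower. The smallest p in the comparisons used to name genes belonged to Trp73, a relative of p53 (-0.21, SE 0.06, limma adjusted p = 0.132, CHIR99021 averaged over XAV939), and Wrap53, which overlaps the p53 gene on the other strand in mammals (0.18, SE 0.06, limma adjusted p = 0.134, XAV939 averaged over CHIR99021).

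**Figure D3:**
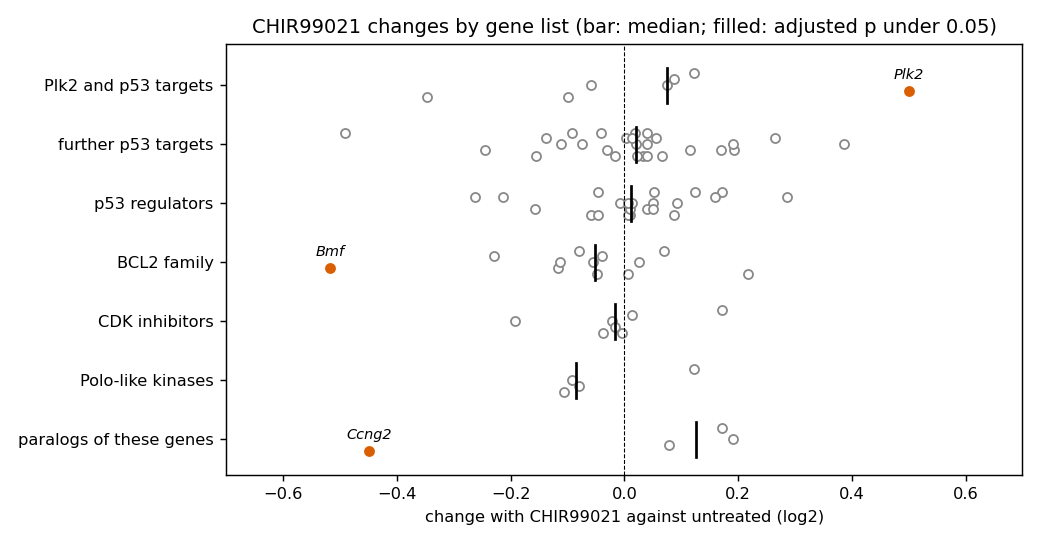
Change with CHIR99021 against untreated (x axis, log2) of each measured gene in 7 lists (rows); bars are list medians and filled points have an adjusted p under 0.05. Plk2 is filled at 0.50, Bmf at -0.52 and Ccng2 at -0.45, and the other genes are open.

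The other 4 Polo-like kinases were also not called in any comparison. Plk1, the mitotic kinase, had a CHIR99021 change of -0.11 (SE 0.08), Plk3, a stress kinase and p53 target, of -0.09 (SE 0.07, also counted among the further p53 targets), Plk4, the main kinase of centriole duplication, of 0.12 (SE 0.09), and Plk5 of -0.08 (SE 0.08). Averaged over XAV939, these kinases had CHIR99021 changes between -0.10 and 0.11, against 0.39 for Plk2. The smallest p in these comparisons belonged to Plk3 (limma adjusted p = 0.406) and Plk4 (limma adjusted p = 0.488).

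Of 4 measured paralogs of the set, Ccng2 was the 1 called, lower, with CHIR99021 against untreated (0.421% of all genes called), with both compounds against untreated (1.13%) and with CHIR99021 averaged over XAV939 (1.59%). Ccng2 encodes cyclin G2, an inhibitor of cell cycle progression known as a FoxO target. It was at 6.44, 6.25 and 6.26 untreated, 5.91, 5.91 and 5.80 with CHIR99021, 6.36, 6.0 and 6.14 with XAV939 and 5.79, 5.94 and 5.74 with both compounds. All 6 arrays with CHIR99021 were below all 6 without it.

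Averaged over XAV939, Ccng2 fell by 0.40 on the log2 scale with CHIR99021 (SE 0.07, limma adjusted p = 0.00486), a call that held under each of 23 alternatives. Against untreated it fell by 0.45 (SE 0.09, limma adjusted p = 0.0499) with CHIR99021 and by 0.49 (SE 0.09, limma adjusted p = 0.0233) with both compounds. The first of these was lost under 15 of 24 alternatives (adjusted p between 0.0256 and 0.18), and so was the second under 8 (adjusted p between 0.0128 and 0.0823). Leaving out untreated replicates 1, 2 and 3 gave adjusted p = 0.18, 0.0967 and 0.134 for the first, and CHIR99021 replicates 1, 2 and 3 gave 0.116, 0.133 and 0.166. It was also lost without XAV939 replicate 3 (0.0675) or replicates 1, 2 and 3 of both compounds (0.0654, 0.0533 and 0.065). Median centring and trend and robust empirical Bayes ended the first as well (limma adjusted p = 0.0622 and 0.0524). So did the replicate block and the fit to the groups compared (limma adjusted p = 0.0507 and 0.0506). The second was lost without untreated replicates 1, 2 and 3 (0.06, 0.0653 and 0.0823) and when replicate 1, 2 or 3 of both compounds was left out (0.0679, 0.0626 and 0.0787). Array SD as covariate ended the second as well (limma adjusted p = 0.0637). The remaining paralogs, Sesn2, Sesn3 and Trp53inp2, were not called, and Sesn2 had 0.34 (SE 0.10, limma adjusted p = 0.0865) with both compounds against untreated. Sesn2 was also counted among the further p53 targets.

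In the BCL2 family, Bmf was the 1 called of 12 measured genes, lower in the same 3 comparisons, where 0.421%, 1.13% and 1.59% of all genes were called. Bmf encodes a BH3-only protein like PUMA and NOXA, tied to the cytoskeleton and not known as a p53 target. It was at 6.54, 6.66 and 6.82 untreated, 6.11, 6.24 and 6.12 with CHIR99021, 6.44, 6.68 and 6.49 with XAV939 and 6.11, 6.04 and 6.39 with both compounds. All 6 arrays with CHIR99021 were below all 6 without it.

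Bmf fell by 0.44 averaged over XAV939 (SE 0.07, limma adjusted p = 0.00372), which held under each of 23 alternatives. Against untreated it fell by 0.52 with CHIR99021 (limma adjusted p = 0.0323) and by 0.50 with both compounds (limma adjusted p = 0.031), and each of these calls was lost under 7 of 24 alternatives. The CHIR99021 call ended without untreated replicate 2 or 3 (adjusted p = 0.0935 and 0.193) and without CHIR99021 replicate 1, 2 or 3 (0.12, 0.0777 and 0.114). The call of both compounds ended without untreated replicate 2 or 3 (0.0878 and 0.144) and without replicate 1 or 2 of both compounds (0.0782 and 0.122). Array SD as covariate ended the CHIR99021 call and that of both compounds (limma adjusted p = 0.0518 and 0.139). The fit to the groups compared ended the call of both compounds (limma adjusted p = 0.0622). The survival genes Bcl2, Bcl2l1 and Mcl1 and the other measured members were not called. The 7 CDK inhibitor genes without Cdkn1a, among them Cdkn1b (p27) and Cdkn2a, gave no call in any comparison. Of these, Cdkn2a had the smallest p (0.17, SE 0.08, limma adjusted p = 0.331, CHIR99021 averaged over XAV939), at a mean level of 4.69, below the background measure, followed by Cdkn3 (-0.19, SE 0.10, limma adjusted p = 0.54, CHIR99021 against untreated).

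**Figure D4:**
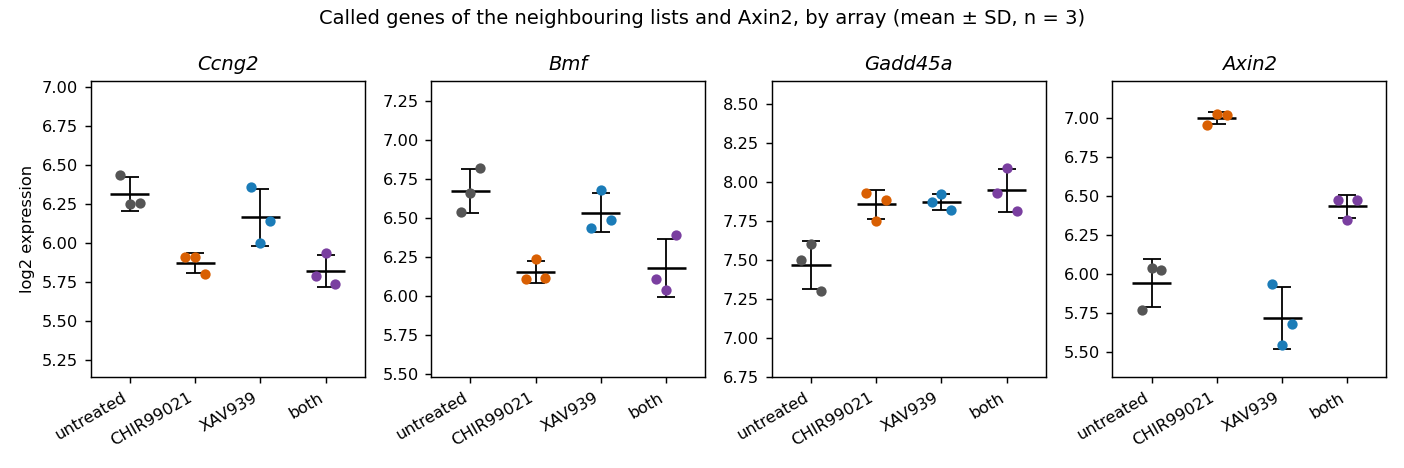
Log2 expression (y axis, the same span in every panel) of Ccng2, Bmf, Gadd45a and the Wnt target Axin2 in the 4 groups (x axis); points are single arrays, lines and bars the mean ± SD (n = 3). Ccng2 and Bmf are lower in both groups with CHIR99021, Gadd45a is lowest in untreated cells at 7.46, and Axin2 is highest with CHIR99021 at 7.0.

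The genes whose pattern over the 12 arrays was most like that of Plk2, by Pearson's r among 11650 genes above the background measure, were Zeb2 (0.962), Eif4a2 (0.959), Asb1 (0.95), Wnt8a (0.94) and Nodal (0.939). Zeb2, a transcriptional repressor, was at 7.0 ± 0.07 untreated, 7.75 ± 0.08 with CHIR99021, 6.95 ± 0.02 with XAV939 and 7.58 ± 0.04 under combined treatment (SD, n = 3). Eif4a2, a translation initiation factor, was at 10.27 ± 0.11, 10.66 ± 0.04, 10.21 ± 0.02 and 10.50 ± 0.08 in the same order. Once group means were taken out, r with Plk2 was 0.40 for Zeb2, 0.64 for Eif4a2, 0.85 for Asb1, 0.17 for Wnt8a and 0.02 for Nodal. These correlations describe 12 arrays that share 4 treatments, and the 5 genes were picked for their likeness.

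For the other measured genes of the set, Pearson's r with Plk2 over the 12 arrays was 0.48 for Ccng1, 0.45 for Pmaip1 (below background on every array), 0.26 for Mdm2, -0.11 for Sesn1, -0.51 for Trp53inp1 and -0.70 for Bbc3. With group means taken out, it lay between -0.25 for Mdm2 and 0.41 for Bbc3.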

How the data were processed

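RNA from each of the 12 samples was hybridised to its own Affymetrix array of 1 colour, per the labels' protocols. The deposited table holds log2 values per probe. The submitters' processing notes name Partek, and the background correction and normalization are not given in the sources used here. Of 35399 probes, 21789 had 1 gene symbol, 1621 several and 11989 none listed in GEO's platform annotation. Symbols were updated by gene identifier to RefSeq GRCm38.p6 (91 probes had no match), and the probe with the highest mean stood for each gene.

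Group means of the 12 arrays were fitted by limma (version 3.58.1, under R 4.3.3; lmFit and eBayes, two-sided), with 8 residual and 8.03 prior degrees of freedom. Benjamini-Hochberg adjustment ran over 19938 genes within each of 8 comparisons, with a threshold of 0.05. SE and 95% intervals are from the fit, and intervals are unadjusted. The script was tested on simulated data with 200 changed genes. The members, lists and alternatives were chosen with earlier results of these data known. Outside the set, the genes named with values were, per list, those called and otherwise the 2 with the smallest p in the comparisons against untreated or averaged, all Polo-like kinases, and the 5 genes most like Plk2. Sesn2 and the cell markers Klf2, Tbx3, Esrrb, Pax6, Sox1 and Nanog were named with values after these were seen. The likeness rule for Cdkn1a could not be applied, since it had no value. With 3 arrays per group and no read depth, the number of arrays limits the precision. Figures were drawn with matplotlib 3.10.9.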

Additional observations from a re-analysis of the deposited data

How the results depend on the processing

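Each comparison was recomputed under 24 alternatives, or 23 where it uses all 4 groups: other normalizations (quantile, median centring, cyclic loess), filters at the median level and at the background measure, the mean of a gene's probes, only the groups compared, trend and robust empirical Bayes, weighted arrays, blocking on replicate number, array SD as covariate, and arrays left out. Over the 7 genes and 8 comparisons this gave 1307 values, of which 16 lost a call, 3 gained one and none turned a called direction. In 47 uncalled values the sign turned. Pmaip1 had no value under the 2 filters.

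The single call with CHIR99021 against untreated, Plk2, stayed under each alternative. With both compounds against untreated, the count went from 1 to 0 under quantile normalization, cyclic loess, the replicate block, array SD as covariate and the fit to the groups compared, and when untreated replicate 3 was left out along with XAV939 replicate 2. The adjusted p of Plk2 was then 0.101, 0.104, 0.0546, 0.136, 0.0857 and 0.154 in the same order, and the count ranged from 0 to 1 over single arrays left out. For CHIR99021 averaged over XAV939 the count went from 1 to 2, with Bbc3 added, under both filters, where fewer genes are tested, and ranged from 1 to 2 over single arrays left out. The cause of the other shifts was not tested.

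Deviations of same-numbered arrays of different groups had correlations between -0.247 and 0.201, over 0.1 in 6 of 18 pairs. Different-numbered arrays had -0.301 to 0.328, over 0.1 in 8 of 36 pairs. The ranges overlapped, which does not settle whether the numbers pair the samples, and the main fit did not pair them. Among the 7 genes, the replicate block changed the call of Plk2 with both compounds against untreated (adjusted p = 0.0546) and no other. Outside the set, it moved Ccng2 with CHIR99021 against untreated to an adjusted p of 0.0507.

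Counts over all genes, against which those of the 7 are read, moved more. With CHIR99021 against untreated the count was 84 and ranged from 34, without untreated replicate 3, to 119, with array weights. With both compounds against untreated it was 225 and ranged from 10, without replicate 2 of both compounds, to 550, with array weights. There 163 were higher and 62 lower, against 59 and 44 under quantile normalization, 55 and 49 under cyclic loess and 324 and 58 under median centring. For CHIR99021 averaged over XAV939 it was 318 and ranged from 178 to 430, with 155 higher and 163 lower against 134 and 205 under quantile normalization, 141 and 200 under cyclic loess and 169 and 134 under median centring. XAV939 averaged over CHIR99021 gave 66, from 2 to 255, with 42 higher and 24 lower against 4 and 10 under quantile normalization, 3 and 10 under cyclic loess and 64 and 23 under median centring. Both compounds gave 47 against XAV939 (21 to 70) and 5 against CHIR99021 (0 to 10). XAV939 against untreated gave 0 to 8, and the interaction 0 to 1. Genes near the background measure, such as Pmaip1, are limited by signal over background.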
